A study of Homo sapiens with 6 samples.

Results

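DLD and 8 genes that encode its partner proteins or regulators were followed through Ago-RIP-seq libraries of MDA-MB-231, a line derived from triple-negative breast cancer. The 9 genes are DLD, DLAT, PDHA1, PDHB, PDHX, OGDH, DLST, DBT and PDK1, out of 60708 genes listed in every library. They were taken as named genes of the pyruvate and 2-oxoglutarate dehydrogenase complexes, with DBT from the branched-chain complex and the kinase PDK1. DLD itself was chosen because it rose strongly in the mimic AGO2-IP, so its values in the mimic libraries are a description with no test.

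The cells received 25 nM of a synthetic miR-99b-5p mimic or of a scrambled control oligonucleotide and were collected 18 hours after transfection. AGO2, the protein that carries miRNAs to their target transcripts, was immunoprecipitated with its bound RNA (AGO2-IP), and the RNA left behind was kept as the flow-through (FT). The mimic had 2 AGO2-IP and 2 flow-through libraries, labelled as 2 biological replicates, whereas the control had 1 library of each fraction. The fraction of each control library rests on its label in the deposit alone, since the study's supplement lists both as control replicates without naming a fraction, and every control ratio below depends on that label. A mimic loads AGO2 with an excess of 1 miRNA in 1 cell line at 1 dose and 1 time, and the IgG pull-down named in the design was not analysed here.

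The 2-oxoacid dehydrogenase complexes are mitochondrial assemblies that turn pyruvate, 2-oxoglutarate or branched-chain 2-oxoacids into acyl-CoA, feeding or driving the tricarboxylic acid cycle. Each uses a decarboxylating E1 enzyme, an E2 acyltransferase that carries lipoic acid and an E3 enzyme that reoxidises the lipoic acid. DLD is that E3 enzyme, shared by all of these complexes and by the glycine cleavage system, while every complex has its own E1 and E2. Binding to AGO2 is usually set by pairing between a transcript and the miRNA seed, the stretch near its 5′ end.

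The miRNA and the stretches of these genes that could pair with its seed are shown first, because they are the sequence basis on which a miR-99b-5p target would be recognised. Mature miR-99b-5p is 22 nucleotides long in RefSeq (GRCh38.p14), at chr19:51692618-51692639 on the plus strand. Its seed, bases 2 to 8, is in capitals.
miR-99b-5p: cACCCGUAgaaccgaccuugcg

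The shortest transcript match to this seed is ACGGGT, the 6-base match, read on the sense strand only. It was found once in each of 3 canonical GENCODE transcripts of the 9 genes, those of DLD, OGDH and PDK1. The capitals mark the match in a window of 30 bases, 5′ to 3′ in the transcript.
DLD: attcttatagccACGGGTtcagaagttact
OGDH: tcctgcccctccACGGGTctgacggaggat
PDK1: actgctaaagtTACGGGTttattttaaagt

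The DLD and OGDH matches lie in coding sequence, and the PDK1 match lies in the 3′ untranslated region. In GRCh38 the DLD match is at chr7:107905469-107905474 and the OGDH match at chr7:44696476-44696481, both on the plus strand. The 6-base core of the PDK1 match is at chr2:172601304-172601309, also on the plus strand, and pairing extends there to TACGGGT, a 7-base match. No ACGGGT was present in the canonical transcripts of DLAT, PDHA1, PDHB, PDHX, DLST or DBT. Of 11747 canonical transcripts of tested protein-coding genes, 17.1% held ACGGGT somewhere, 6.67% held it in the 3′ untranslated region, and 2.21% held a 7-base match there. Over all annotated transcripts, a 6-base match was present in 7 of 13 for DLD, 5 of 9 for OGDH, 1 of 16 for DLST and 1 of 9 for PDK1. Matches outside the seed were not searched for, and a match says only that the letters are there.

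The libraries differed in quality between the mimic and the control. Counts on genes ran from 38022779 to 48544756 in the mimic libraries and were 8076375 and 7772149 in the control AGO2-IP and flow-through. Read pairs that named no gene made up 21.4% to 47.2% of the mimic libraries, 95.03% for the AGO2-IP and 92.3% for the flow-through of the control. Mitochondrial genes held 43.4% of what was counted in the control flow-through, 3.48% in its AGO2-IP and at most 0.125% in the mimic. The mimic flow-through libraries were the less alike of the replicate pairs, with a standard deviation of the log2 difference between replicates of 1.44 over 13078 genes, against 0.840 for the AGO2-IP. That flow-through difference followed GC content (Spearman's rho = -0.755) over 11747 protein-coding genes, whereas the AGO2-IP difference had a rho of -0.00626. VIM, CD44, MSN, CAV1, AXL and KRT18, known in this line, were counted in every library. ESR1, PGR and CDH1, expected to be low, and PTPRC and DCN, markers of other cells, had at most 53 counts in any library. COL1A1, a fibroblast marker, had 36 to 2141 counts. Fewer molecules of a transcript and less of it bound to AGO2 cannot be told apart from one fraction alone.

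In the mimic, DLD and 3 subunits of the pyruvate dehydrogenase complex, PDHA1, PDHB and PDHX, had the largest differences between AGO2-IP and flow-through among the 9 genes. The other members had fold changes of less than 1 on the log2 scale. Levels are gene counts scaled to the library total (CPM) unless stated, with mean ± SD over 2 libraries. The fold changes and adjusted p-values come from edgeR's quasi-likelihood test over 13078 genes, with a call needing an adjusted p of at most 0.05 and a log2 fold change of 1 or more in size. None of the 8 partner genes was called enriched, against a background of 0.245% of all genes, and none was called depleted, against 0.413%. Unadjusted p-values were under 0.05 for 3 of the 8 partners and for 3107 of the 13078 genes.

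The replicate numbers pair an AGO2-IP with a flow-through. With this pairing as a block in the model, the same test called 3 partners enriched, PDHA1, PDHB and PDHX. Of all genes, 4.60% were called enriched there. The block adds a term to a model of few libraries, which leaves less to estimate the variation from. Standard errors of these 3 genes were larger with the block. They were 0.737 against 0.627 for PDHA1, 0.781 against 0.70 for PDHB and 0.756 against 0.696 for PDHX. Why their adjusted p-values were lower was not tested, so these calls are not firmer evidence than the fit without the block. PyDESeq2 without the block also called PDHA1, PDHB and PDHX, against 6.41% of all genes. In 6 of the 8 partners, both AGO2-IP libraries lay above both flow-through libraries after TMM normalization, against 28.1% of all genes tested. The median log2 fold change was 0.64 over the 8 partners and -0.11 over all genes.

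**Figure D1:**
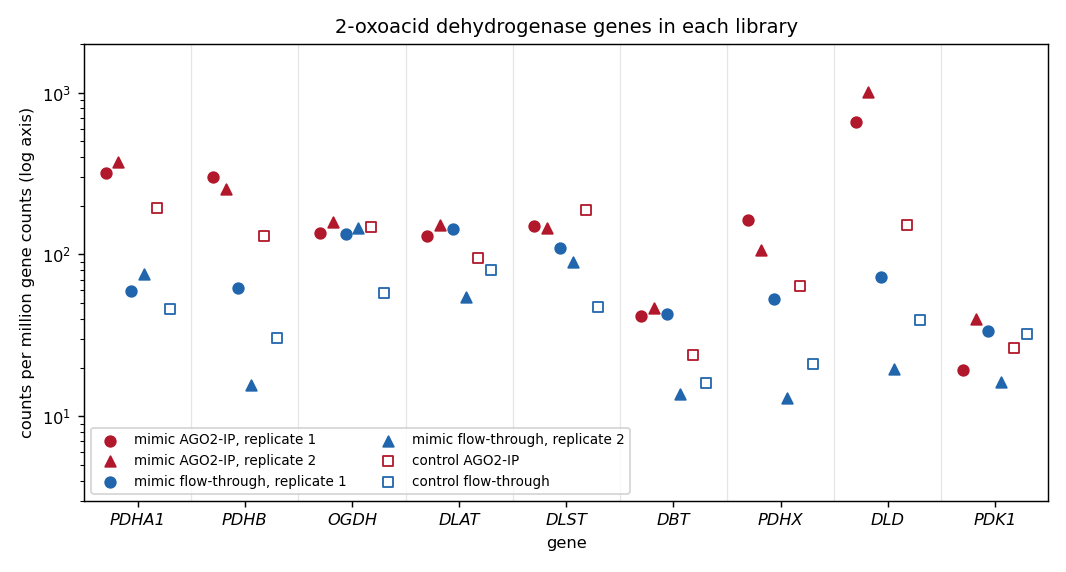
Library-scaled counts (CPM) of the 9 genes on a log axis, with 1 point per library, red for AGO2-IP, blue for flow-through, filled for mimic and open for control. DLD reached 658 and 1014 in the mimic AGO2-IP and lay between 19.5 and 152 elsewhere. PDHA1, PDHB, PDHX and, by a smaller gap, DLST also had both red filled points above all blue ones.

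PDHA1, on the X chromosome, encodes the alpha subunit of the pyruvate dehydrogenase E1 enzyme and holds the serines that the kinases phosphorylate. The mimic libraries held 320 and 371 CPM of it in the AGO2-IP, against 59.3 and 76.1 CPM in the flow-through. The 2 fractions did not overlap, and the control AGO2-IP at 195 CPM lay between them while the control flow-through was lowest at 45.8 CPM. The mimic means were 345 ± 35.5 and 67.7 ± 11.8 CPM. The log2 fold change was 2.26 (SE 0.627), with an adjusted p of 0.0854 by edgeR. With the replicate block it was 2.32 with an adjusted p of 0.0268, and by PyDESeq2 the adjusted p was 0.00687.

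PDHB encodes the beta subunit of the same E1 enzyme. In the mimic AGO2-IP it was counted at 301 and 256 CPM, and the flow-through had 62.3 and 15.6 CPM. The control values were 131 CPM for AGO2-IP and 30.5 CPM for flow-through. AGO2-IP libraries were above flow-through libraries in both treatments, and the 2 mimic flow-through libraries differed from each other by more than the 2 mimic AGO2-IP libraries did. The log2 fold change of 2.93 (SE 0.70) was the largest of the 8 partners, with an adjusted p of 0.0656 by edgeR. The replicate block gave 3.11 with an adjusted p of 0.00359, and PyDESeq2 gave an adjusted p of 0.000649.

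OGDH, the E1 enzyme of the 2-oxoglutarate complex, was measured at 136 and 160 CPM in the mimic AGO2-IP, while the mimic flow-through had 133 and 145 CPM. The 2 fractions overlapped. Its log2 fold change was 0.02 (SE 0.590, adjusted p = 0.987 by edgeR), and the control had 148 CPM in its AGO2-IP and 57.6 CPM in its flow-through. OGDH thus differed from the pyruvate E1 genes in having a flow-through level as high as its AGO2-IP level in the mimic, a difference between genes that was not tested.

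DLAT is the E2 acyltransferase of the pyruvate complex. Its level was 130 and 151 CPM in the mimic AGO2-IP, 144 and 54.3 CPM in the flow-through of the mimic, and 94.97 and 79.9 CPM in the paired fractions of the control. Flow-through replicate 1 reached the AGO2-IP range in CPM, and only replicate 2 stood apart. The log2 fold change was 0.56 (SE 0.609, adjusted p = 0.593 by edgeR).

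DLST, the E2 enzyme of the 2-oxoglutarate complex, stood at 150 and 147 CPM in the mimic AGO2-IP, above 109 and 90.0 CPM in the flow-through. The fractions did not overlap, yet the gap was small, with a log2 fold change of 0.54 (SE 0.577, adjusted p = 0.587 by edgeR). In the control AGO2-IP it was 189 CPM, above both mimic AGO2-IP libraries, and in the control flow-through it was 47.6 CPM.

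DBT, the E2 enzyme of the branched-chain complex, was less abundant. It had 41.8 and 47.0 CPM in the mimic AGO2-IP, 43.0 and 13.8 CPM in the flow-through of the mimic, and 24.0 and 16.1 CPM in the AGO2-IP and flow-through of the control. As for DLAT, 1 mimic flow-through library lay within the AGO2-IP range in CPM and the other lay below it. The log2 fold change was 0.72 (SE 0.652, adjusted p = 0.516 by edgeR).

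PDHX encodes the E3-binding protein, the subunit that anchors DLD to the pyruvate complex. It was counted at 162 and 107 CPM in the mimic AGO2-IP, at 53.0 and 12.9 CPM in the flow-through of the mimic, and at 63.8 and 21.1 CPM in the AGO2-IP and flow-through of the control. Both mimic AGO2-IP libraries exceeded all other libraries. The log2 fold change was 2.12 (SE 0.696, adjusted p = 0.117 by edgeR), with the replicate block 2.29 (adjusted p = 0.0343), and the adjusted p by PyDESeq2 was 0.0220.

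DLD, the shared E3 enzyme, had the highest counts of the 9 genes in the mimic AGO2-IP, at 30763 and 38569, beside 3418 and 946 in the flow-through. The control libraries held 1224 counts (AGO2-IP) and 305 counts (flow-through). In CPM this was 658 and 1014 for the mimic AGO2-IP, 72.7 and 19.5 for its flow-through, and 152 and 39.2 for the AGO2-IP and flow-through of the control. Each AGO2-IP library was above each flow-through library in both treatments. The mimic means were 836 ± 252 and 46.1 ± 37.6 CPM, and the log2 fold change was 4.28 (SE 0.742), above 99.9% of the genes tested. That rank follows from the choice of DLD by its rise in the mimic AGO2-IP. Single AGO2-IP and flow-through libraries of the mimic differed by 3.36 to 5.45 on the log2 scale. Removal of each library's GC trend gave a log2 fold change of 3.56.

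PDK1 is one of the kinases that switch off the pyruvate complex by phosphorylating its E1 enzyme. It had the lowest level per kilobase of exon in 5 of the 6 libraries, with DBT lower in the other. Per kilobase of coding sequence it was lowest in 3 of the 6, and DBT was lower in the others. PDHX was also lower than PDK1 in mimic flow-through replicate 2, as were PDHX and OGDH in the control flow-through. The mimic had 19.4 and 39.7 CPM in its AGO2-IP, beside 33.6 and 16.2 CPM in its flow-through. The 2 fractions overlapped, and the log2 fold change was 0.29 (SE 0.671, adjusted p = 0.819 by edgeR). The control had 26.4 CPM in its AGO2-IP and 32.0 CPM in its flow-through, and PDK1 was the only one of the 9 genes with a lower CPM, before TMM scaling, in the control AGO2-IP than in the control flow-through.

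In DLD, PDHB and PDHX, though not in PDHA1, flow-through replicate 2 was well below replicate 1. On the TMM scale, flow-through replicate 1 exceeded replicate 2 by 1.40 for DLD, 1.501 for PDHB and 1.54 for PDHX in log2, and the difference was -0.85 for PDHA1. The canonical transcripts of DLD, PDHX, PDHB and PDHA1 are 37.9%, 40.9%, 44.3% and 46.2% GC, all below the median of 48.0% over 11747 transcripts, although PDHA1 went the other way from DLD, PDHX and PDHB. OGDH and DLST, at 56.3% and 51.8% GC, differed between the flow-through replicates by -0.62 and -0.21. After removal of each library's GC trend, the log2 fold changes were 1.91 for PDHA1 (adjusted p = 0.0643 by edgeR), 2.57 for PDHB (adjusted p = 0.0329) and 1.56 for PDHX (adjusted p = 0.0677). Without flow-through replicate 2 the log2 fold change was 3.71 for DLD, 2.72 for PDHA1, 2.33 for PDHB and 1.51 for PDHX. Without flow-through replicate 1 it was 5.10 for DLD, 1.86 for PDHA1, 3.83 for PDHB and 3.05 for PDHX. Without AGO2-IP replicate 1 it was 4.57 for DLD, 2.38 for PDHA1, 2.83 for PDHB and 1.81 for PDHX. Without AGO2-IP replicate 2 it was 3.87, 2.08, 2.99 and 2.34 in the same order. Across the 9 genes the fold change had a Spearman's rho of -0.57 with transcript length and -0.40 with GC content. Over all 11747 genes the values were 0.30 and -0.55, all as descriptions of genes that share the same libraries.

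The scrambled control allowed the same ratio from 1 library of each fraction, without a replicate check. The intervals cover counting error only. The control log2 ratio, AGO2-IP over flow-through, was at least 1 for 4 of the 9 genes, against 15.9% of 8245 genes, namely DLD, PDHA1, PDHB and DLST. It was at most -1 for 1 gene, PDK1, against 18.1% of genes. The median was 0.70 over the members and 0.01 over all genes.

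DLD had a control log2 ratio of 1.05 (95% interval 0.87 to 1.24), higher than 85.5% of genes. The pyruvate E1 genes had similar ratios, 1.19 for PDHA1 (1.03 to 1.37) and 1.203 for PDHB (1.003 to 1.42), and PDHX was at 0.70 (0.45 to 0.97). The intervals of DLD, PDHA1 and PDHB overlapped, so their order in the control was within counting error. Of the 2-oxoglutarate genes, DLST stood at 1.09 (0.93 to 1.26) and OGDH at 0.47. DLAT was at -0.64 (-0.80 to -0.49), DBT at -0.31 (-0.65 to 0.02) and PDK1 at -1.16 (-1.44 to -0.90). With the GC trend removed, the control ratios were 1.42 for DLD, 1.19 for PDHB, 1.14 for PDHA1 and 0.84 for DLST. Scaling by library size alone, which does not adjust for the mitochondrial share, gave 1.96 for DLD and -0.26 for PDK1.

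**Figure D2:**
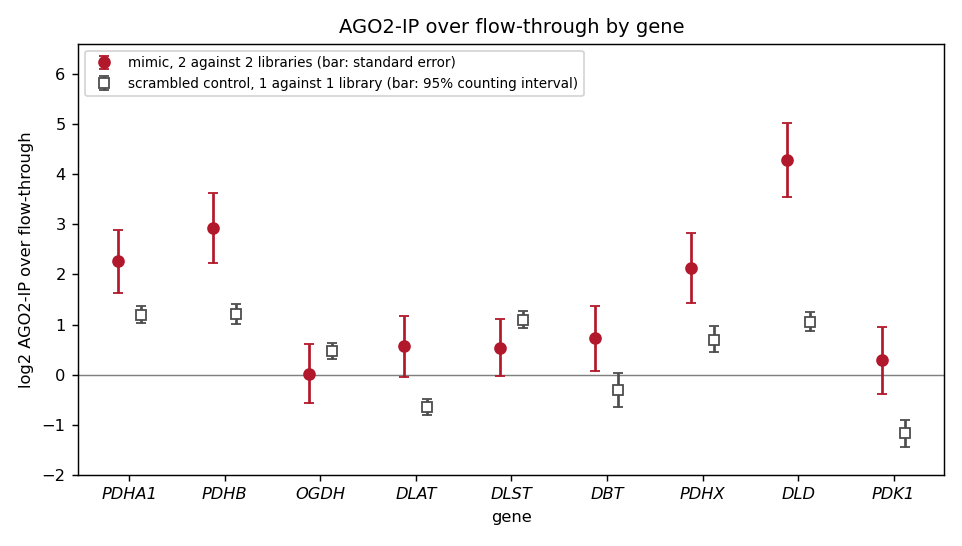
Log2 AGO2-IP over flow-through of each gene, in the mimic (filled, with the standard error of the edgeR fit over 2 against 2 libraries) and in the control (open, with the 95% counting interval of 1 against 1 library). DLD stood at 4.28 in the mimic and 1.05 in the control, next to 1.19 for PDHA1 and 1.203 for PDHB in the control.

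The AGO2-IP libraries of mimic and control were then compared directly, again with 1 control library, which also enters the control ratios above. The log2 ratio was at least 1 for 3 of the 8 partners, PDHB, PDHX and DBT, against 17.3% of 11467 genes. No partner was at or under -1, against 17.4% of genes. DLD, which was chosen by its rise in the mimic AGO2-IP, was at 2.56, from 2.22 in replicate 1 and 2.90 in replicate 2, higher than 98.98% of genes. PDHB was at 1.22, PDHX at 1.18, DBT at 1.02 and PDHA1 at 0.95, and in each of these both mimic replicates were above the control. DLAT was at 0.70, OGDH at 0.12 and DLST at -0.21, and the PDK1 replicates lay on either side of the control at -0.33 and 0.75. With the GC trend removed, PDHB was at 0.86, PDHX at 0.51 and DBT at 0.25, so that no partner was at or above 1, and DLD was at 1.72.

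In the flow-through, none of the 9 genes differed between mimic and control by a log2 ratio of 1 or more in size, in either direction, against 20.3% of 12254 genes. DLD was at -0.53 on average, from 0.16 in replicate 1 and -1.22 in replicate 2. PDHB was likewise split, at 0.30 and -1.17, and so was PDHX, at 0.60 and -0.92. The control flow-through thus lay between the 2 mimic flow-through libraries for these 3 genes, with no direction held in both replicates. DLAT, PDHA1 and DBT were split as well. PDK1 was lower than the control in both replicates, at -0.66 and -1.19. OGDH (0.48 and 1.12) and DLST (0.47 and 0.71) were higher in both. Without flow-through replicate 1, 4 members were at or under -1, namely DLD (-1.31), PDHB (-1.27), PDHX (-1.02) and PDK1 (-1.29). OGDH was then at 1.02. That setting has 1 library on each side, and no share of all genes is set beside it.

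**Figure D3:**
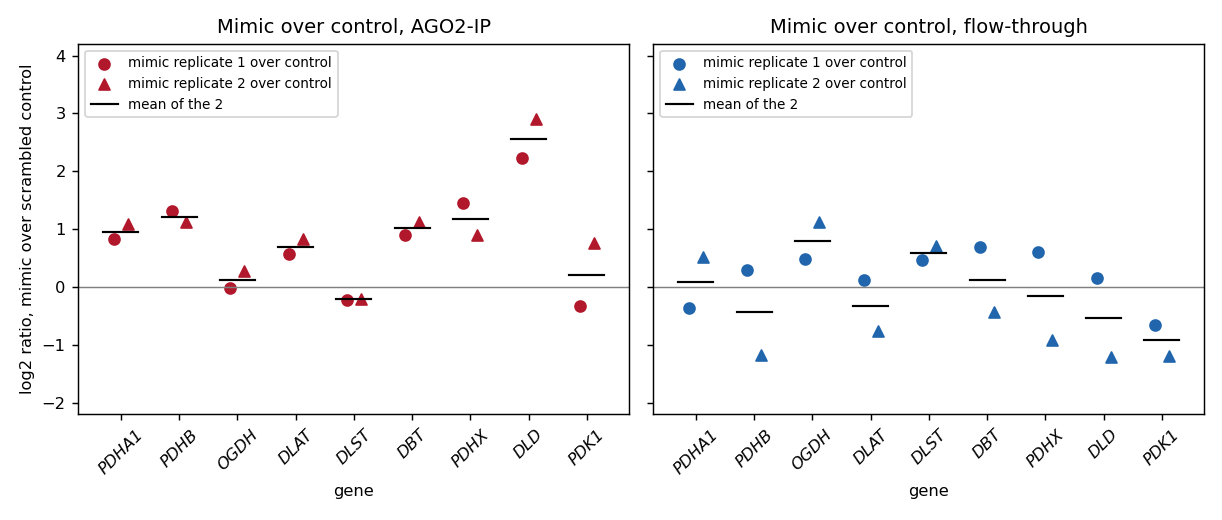
Log2 ratio of each mimic library over the single control library of the same fraction, with the mean of the 2 as a line. In the AGO2-IP the DLD points sit at 2.22 and 2.90, and in the flow-through at 0.16 and -1.22.

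Levels were compared between genes per kilobase of exon. In the mimic AGO2-IP, DLD, chosen by its rise there, was highest at 129 and 199 CPM per kilobase. PDHA1 followed at 64.7 and 74.8 and PDHB at 63.7 and 54.2. The range of PDHX (43.6 and 28.6) overlapped those of DLST (33.1 and 32.2) and OGDH (26.1 and 30.7), and DLAT (17.3 and 20.0), DBT (3.60 and 4.04) and PDK1 (1.31 and 2.68) came after. This order depended on the length used. Per kilobase of canonical transcript, PDHB, whose canonical transcript is short at 1507 bases, had 199.5 and 169.6 CPM per kilobase, above DLD (186.1) in replicate 1 and below it (286.8) in replicate 2, and above PDHA1 (95.7 and 110.6) in both. The order was different in the mimic flow-through, where OGDH was highest at 25.6 and 27.9 CPM per kilobase and DLD had 14.3 and 3.82. In that fraction DLD, PDHX (14.2 and 3.46) and PDHB (13.2 and 3.31) overlapped over most of their range. In the control AGO2-IP, DLST was highest at 41.5 CPM per kilobase of exon (PDHB, at 86.8, per kilobase of canonical transcript), with DLD the third of the 9 genes at 29.7, and in the control flow-through DLD was the fifth at 7.69.

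DLD made up 33.7% and 44.6% of the summed level per kilobase of the 9 genes in the mimic AGO2-IP. Its share was 11.1% and 4.60% in the flow-through of the mimic, and 14.8% and 11.9% in the AGO2-IP and flow-through of the control. The 2 mimic AGO2-IP libraries, where DLD was chosen for its rise, were above all others, and the control fractions were close to flow-through replicate 1. Using coding length in place of exon length gave 31.7% and 41.8% in the mimic AGO2-IP, and canonical transcript length gave 27.7% and 38.4%, where PDHB held 29.7% and 22.7%.

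**Figure D4:**
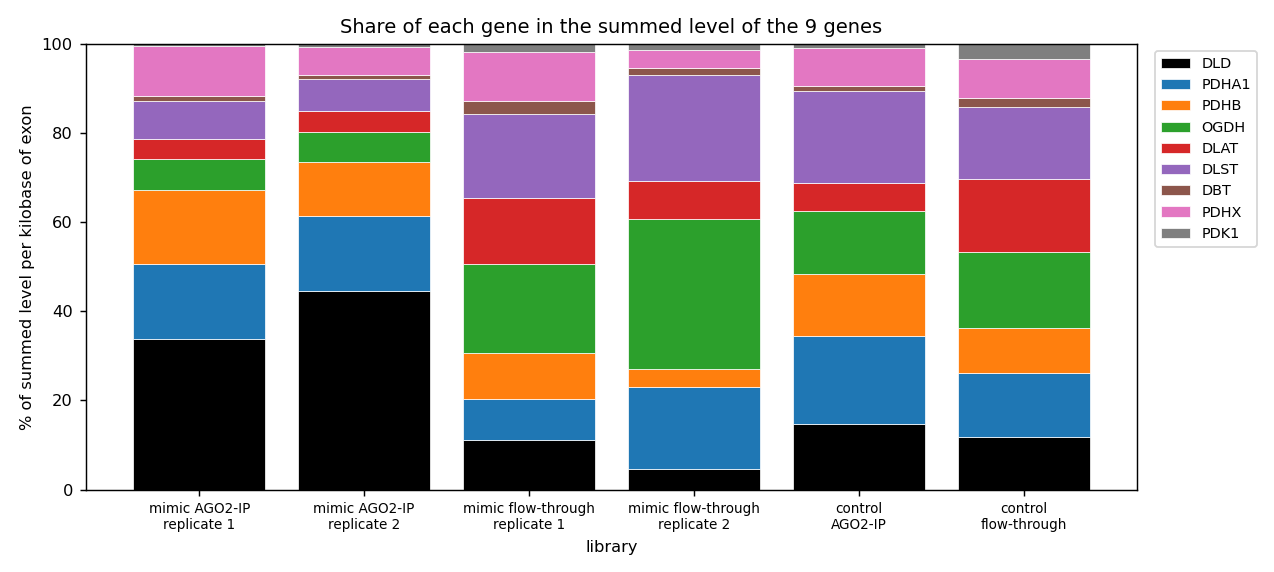
Percent of the summed level per kilobase of exon held by each of the 9 genes, with 1 bar per library. DLD, in black, held 33.7% and 44.6% in the mimic AGO2-IP and between 4.60% and 14.8% in the other libraries.

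Several of the genes share bases with a gene on the other strand, where unstranded counting leaves out read pairs that fall on both. DLD shares 300 of its 5102 exon bases with LAMB1, DLAT 1004 of 7550 with PIH1D2, PDHA1 956 of 4953 with MAP3K15 and PDHX 152 of 3720 with APIP. PDK1 shares 445 bases with the antisense RNA PDK1-AS1 and PDHB 360 with a long non-coding RNA. Compared with the sum of the separate strand counts, the pairs left out were at most 12.2% for DLD, 37.2% for PDHX and 61.2% for PDHB, each in mimic flow-through replicate 2. In the mimic AGO2-IP libraries they were at most 0.421% for DLD, 9.70% for PDHX and 23.6% for PDHB. The share left out was thus unequal between fractions for these 3 genes. Because the libraries hold both strands about evenly, a pair in a shared stretch may come from either gene. The summed strand counts can therefore include pairs of the other gene. For PDK1 35.1% were left out in mimic flow-through replicate 2 and 11.3% in replicate 1, against 16.2% and 20.4% in the mimic AGO2-IP. With the summed strand counts, the log2 fold change of mimic AGO2-IP over flow-through was 4.19 for DLD, 2.48 for PDHB (adjusted p = 0.0790 by edgeR) and 1.84 for PDHX (adjusted p = 0.141). For OGDH and DLST at most 0.0142% of pairs were left out. Processed pseudogenes of DLST, PDHA1, DBT and PDK1 drew at most 10 counts each over all 6 libraries.

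**Figure D5:**
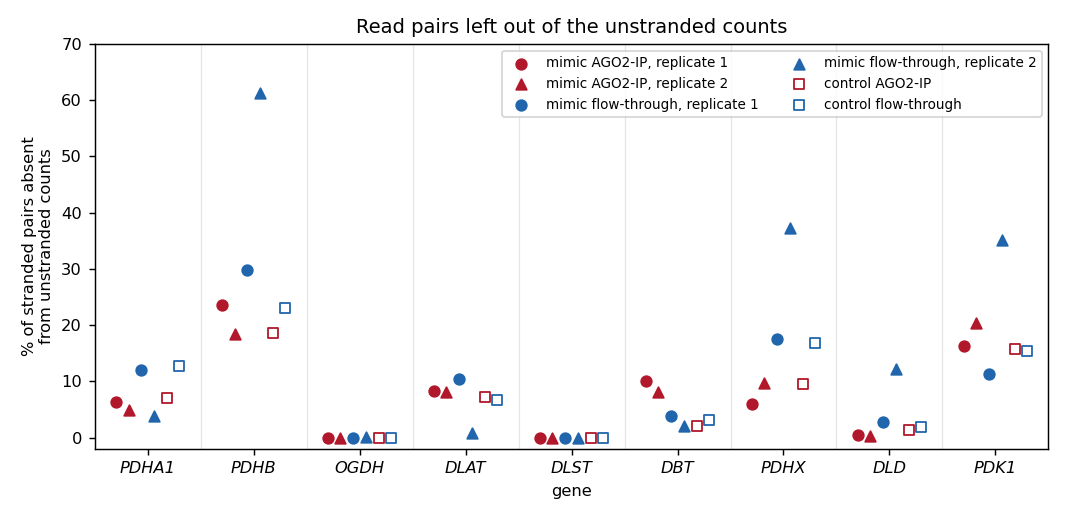
Percent of read pairs in the summed strand counts that are missing from the unstranded counts, for each gene and library. PDHB reached 61.2%, PDHX 37.2%, PDK1 35.1% and DLD 12.2% in mimic flow-through replicate 2.

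The wider pathway was read from 44 further genes, 38 of which had enough counts to be tested in the mimic. None was called enriched or depleted by edgeR, and the median log2 fold change was 0.31. With the replicate block, 3 of the 38 were called enriched, against 4.60% of all genes, and 1 depleted, against 5.08%. In 2 of the 38 the log2 fold change was at least that of PDHX, which itself was above 96.0% of all genes tested.

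Of the 15 tricarboxylic acid cycle enzymes, all tested, SUCLA2 was highest. This ADP-forming succinyl-CoA synthetase subunit, which works directly after the 2-oxoglutarate complex, had a log2 fold change of 3.35 (SE 0.710, adjusted p = 0.0543 by edgeR), and the adjusted p with the block was 0.00149. IDH3G, a regulatory subunit of isocitrate dehydrogenase, was lowest at -2.07 (adjusted p = 0.118).

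Among 8 kinases and phosphatases, PDP1, the phosphatase that reactivates the pyruvate complex, was highest at 1.32 (adjusted p = 0.207 by edgeR). BCKDK, the kinase of the branched-chain complex, was lowest at -2.51 (adjusted p = 0.0706, and 0.0182 with the block). In lipoylation and thiamine supply, 6 of 7 genes were tested. LIPT2, which transfers the octanoyl group from which lipoic acid is made, was highest at 2.30 (adjusted p = 0.141, and 0.0379 with the block). Among 5 genes of pyruvate supply, LDHA, which interconverts pyruvate and lactate, was highest at 2.10 (adjusted p = 0.103, and 0.00649 with the block). The pyruvate carrier subunit MPC1 was lowest at -1.61 (adjusted p = 0.236). Of 6 further subunits 4 were tested, from BCKDHB, the branched-chain E1 beta subunit, at 1.23 (adjusted p = 0.302) to OGDHL, a relative of OGDH, at -2.18 (SE 1.35, adjusted p = 0.337). OGDHL rested on few counts, 9 and 79 in the mimic AGO2-IP and 25 and 398 in the mimic flow-through, which overlapped. None of the 3 glycine cleavage genes besides DLD had enough counts.

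The genes whose pattern over the 6 libraries was most like that of DLD came from outside the pathway. Likeness was the root mean square difference of centred log2 CPM, over 8105 other protein-coding genes. PDCD4, a translation inhibitor, was nearest at 0.310. HNRNPR (0.377) and HNRNPA3 (0.384), both RNA-binding proteins, followed, and then PSMC6 (0.413), a proteasome subunit, and HSD17B4 (0.436), an enzyme of peroxisomal fatty acid oxidation. Their log2 fold changes in the mimic were 3.57 to 3.84, and their ratios in the control ran from 0.21 to 2.14. As these genes were picked for likeness over the same 6 libraries, values near those of DLD follow from the choice. Of the 8 partners, PDHB was the most like DLD, at rank 41 with a difference of 0.654, followed by PDHX at rank 243 and PDHA1 at rank 463. DBT, DLAT, DLST, OGDH and PDK1 ranked from 1935 to 4055.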

How the data were processed

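Ago-RIP-seq libraries of MDA-MB-231 were deposited as gene counts. Per the labels and the methods, the authors checked paired reads with FastQC 0.11.9, removed adapters with cutadapt 3.5, mapped the reads on GRCh38 with STAR 2.7.11b and counted uniquely mapped pairs per gene, without normalization. The release of the annotation is not given in the sources used here. Of 60708 identifiers, 60463 matched GENCODE 44. Unstranded counts were used, because the strands were about even (49.0% to 55.1% in column 3).

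Rows naming no gene were left out of library sizes. The 2 mimic AGO2-IP libraries were compared with the 2 mimic flow-through libraries by edgeR 4.0.16 (glmQLFit, glmQLFTest) with TMM factors, for genes that had 200 or more counts in these libraries together, with Benjamini-Hochberg adjustment over all of them. The standard error is the log2 fold change divided by the square root of the F statistic. The script was tested on simulated data. Comparisons with a control library are log2 ratios of TMM-normalized CPM with a prior count of 2 and no test, and their counting intervals are exact (95%). The pairing comes from the replicate numbers in the labels, which give each biological replicate both fractions. Across genes, the deviations from the group means of libraries with one number correlated (Pearson's r = 0.324). The methods call the replicates independent biological replicates.

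Alternatives were PyDESeq2 0.5.4, DESeq2 1.42.0 size factors, library size alone, other filters, single strands, the replicate block, GC trend removal (lowess, span 0.2), all 6 libraries in one fit, protein-coding genes only, an adjusted p of 0.01, a prior count of 0.5, other lengths and each replicate left out. The summed strand counts were an alternative chosen after seeing the data. The members and gene lists were chosen with earlier results of these data known. Named pathway genes are the highest and lowest fold change of each list (the lowest of lipoylation and thiamine supply is not reported here), and the 5 genes most like DLD.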

Additional observations from a re-analysis of the deposited data

Results flagged for a closer look

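For DLAT and DBT, both E2 enzymes, every mimic AGO2-IP library lay above every mimic flow-through library on the TMM scale, while the control lay the other way. The log2 value was 0.56 in the mimic and -0.64 in the control for DLAT, and 0.72 in the mimic and -0.31 in the control for DBT. That contrast of treatments was not tested, because the control has 1 library of each fraction, and the counting interval of DBT in the control reached 0.02. With the GC trend removed the mimic value was -0.15 for DLAT and 0.0072 for DBT, and with library size alone the control value was 0.26 for DLAT and 0.58 for DBT.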

How the results depend on the processing

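Neither of the counts over all genes was stable, at 32 enriched and 54 depleted in the mimic by edgeR. Enriched and depleted genes numbered 13 and 33 with DESeq2 size factors, 9 and 35 with library size alone, 434 and 309 with the GC trend removed, 838 and 1077 by PyDESeq2, and 0 and 4 at an adjusted p of 0.01. They were 213 and 371 with at least 200 counts in each library, 144 and 86 with a summed count of at least 10, 1 and 17 or 2 and 12 in the strand columns, 5 and 24 in their sum, and 0 and 0 over protein-coding genes only. With the replicate block they were 601 and 664, and with the block and the GC trend removed 1835 and 1658. Leaving out 1 library gave 2 to 2476 and 20 to 2527, both highest without flow-through replicate 1, where a lone library is assumed to vary like the other group. Partners called enriched, 0 at first, were 1 (PDHB) with the GC trend removed, beside 434 of 13078 genes. With at least 200 counts in each library 1 was called (PDHB), beside 213 of the genes kept there. PyDESeq2 called 3, beside 838 genes (6.41%), and the replicate block called 3, beside 601 (4.60%). The block with the GC trend removed called 3, beside 1835 of 13078 genes. Partner calls with 1 library left out are not given, because 1 fraction then has a single library. No partner was called depleted under any alternative run. The block changed no other call among the partners.

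Fold changes near 0 changed sign. DLAT was -0.15 with the GC trend removed and -0.15 with the block added. PDK1 was -0.54 and -0.61 under the same settings, and -0.40 to 0.72 with 1 library left out. OGDH was -0.16 with 200 counts in each library, -0.093 and -0.043 in the strand columns, -0.045 over protein-coding genes and -0.30 to 0.33 with 1 library left out. The fold change of DLD stayed between 3.52 and 4.54 under the other settings and between 3.71 and 5.10 with 1 library left out.

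Of the control ratios, members at 1 or more were 2 in place of 4 in strand column 4, where DLD (0.69) and PDHA1 (0.94) fell under 1, and 6 with library size alone, and members at -1 or less were 0 in place of 1 with the GC trend removed or library size alone. Library size alone raised the control ratio of every member, as for PDK1 from -1.16 to -0.26. For mimic over control, 1 in place of 4 members was at 1 or more in the AGO2-IP with the GC trend removed, the 1 being DLD. The 4 included DLD, which was chosen by its rise in the mimic AGO2-IP. In the flow-through, 2 were at 1 or more with library size alone, 0 to 1 with 1 library left out, and 0 to 4 were at -1 or less with 1 library left out. The cause was not tested in any of these, and no share of all genes is set beside these counts of members. The control ratios rest on 305 counts or fewer in the flow-through for 5 of the 9 genes.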
